A study of Mus musculus with 10 samples.

Results

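Collagen chain genes encode the polypeptides that wind in threes into the collagens, the main structural proteins of the extracellular matrix. The members were the rows of the deposited gene count table whose gene name is Col, a type number, a and a chain number. This rule found 44 genes among the 54532 of the table. Of these, 35 had enough counts to be tested, and the other 9 are given by their counts. The RNA came from lung tissue of wild-type (WT) mice, in 10 libraries: Vehicle (3), LPS (3) and LPS+TSLP (4). LPS is lipopolysaccharide, a component of bacterial outer membranes, and in LPS+TSLP recombinant TSLP, an epithelial cytokine, was given before LPS. Strain, age, sex, doses and times are not given in the sources used here, and nothing there states whether each library stands for its own mouse. The p-values therefore measure the spread between these samples, and how much of it is technical is not known.

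Fibrillar collagens (types I, II, III, V, XI and their relatives) assemble into the fibrils that bear tension in airway, vessel and alveolar walls. Type IV collagen forms the sheet of basement membranes, on which epithelium and endothelium rest, and the lung adds the Col4a3, Col4a4 and Col4a5 chains to the ubiquitous Col4a1 and Col4a2 chains. FACIT collagens (fibril-associated collagens with interrupted triple helices) decorate the surface of fibrils, and type VI forms beaded filaments around cells. In the lung most of these transcripts are made by fibroblasts, pericytes and smooth muscle cells, with type IV also from endothelium and epithelium. By class, the 44 members were 11 fibrillar, 6 basement membrane, 9 FACIT and 18 of other types, the last holding 6 of type VI, 4 transmembrane, 3 short-chain network, 2 multiplexin, 1 anchoring fibril and 2 with no class here.

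Library totals were 16175172 to 18374461 counts, and 20623 to 23917 genes had a count. LPS+TSLP replicate 1 stood apart in its mitochondrial share of counts, 13.1%, against 1.996% to 6.50% in the other LPS+TSLP libraries, 1.20% to 2.58% in LPS and 1.11% to 1.27% in Vehicle. LPS replicate 1 stood apart in Xist, the X-inactivation RNA, at 206 CPM (CPM is a gene's count scaled to library size, here with TMM factors between libraries), where the other 9 libraries had 0 to 0.451 CPM. Both are in the tests below. Xist marks female cells, so the LPS libraries were unlikely to come all from the same mouse. The part of sex in the collagen values was not tested. The 44 members together had 62756 to 267362 counts per library, the fewest in LPS replicate 1.

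Before the values, promoter windows are shown for a pair of type IV genes that start back to back and for a pair of fibrillar genes that were both lower after LPS. RefSeq windows (GRCm38.p6, 250 bases before to 50 after a start) matched 35 of the 44 members by symbol, with 38 windows. Col4a1 lies on the minus strand of chromosome 8 (11198423 to 11312826) and Col4a2 on the plus strand (11312805 to 11449287), and the windows chr8:11312777-11313076 (minus) and chr8:11312555-11312854 (plus) share 78 bases. Col1a2 (chr6:4505368-4505667, plus) encodes the second chain of type I collagen, and Col3a1 (chr1:45311288-45311587, plus) the chain of type III. Capitals mark 3 motifs, each searched on both strands. The CCAAT box was searched as CCAAT. The GC box was searched as GGGCGG. The TATA box was searched as TATAAA. Each line runs 5′ to 3′ along the gene's own strand.
Col4a1: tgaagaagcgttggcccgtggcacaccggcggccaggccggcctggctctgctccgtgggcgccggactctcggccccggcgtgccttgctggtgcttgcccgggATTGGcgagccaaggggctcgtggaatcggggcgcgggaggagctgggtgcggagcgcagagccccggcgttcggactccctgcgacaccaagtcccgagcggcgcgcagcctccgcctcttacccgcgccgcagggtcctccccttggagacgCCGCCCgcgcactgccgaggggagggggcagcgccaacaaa
Col4a2: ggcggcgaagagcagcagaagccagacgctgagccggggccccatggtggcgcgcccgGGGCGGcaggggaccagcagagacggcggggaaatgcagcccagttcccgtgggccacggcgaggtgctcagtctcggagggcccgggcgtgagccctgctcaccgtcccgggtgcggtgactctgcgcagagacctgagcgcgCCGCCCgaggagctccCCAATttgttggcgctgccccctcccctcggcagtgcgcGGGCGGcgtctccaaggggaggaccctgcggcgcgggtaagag
Col1a2: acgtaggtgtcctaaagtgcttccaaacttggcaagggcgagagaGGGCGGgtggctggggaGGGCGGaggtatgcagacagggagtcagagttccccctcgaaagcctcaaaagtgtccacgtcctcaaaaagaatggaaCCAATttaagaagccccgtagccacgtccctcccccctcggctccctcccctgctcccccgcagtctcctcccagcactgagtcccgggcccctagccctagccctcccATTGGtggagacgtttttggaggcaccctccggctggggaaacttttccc
Col3a1: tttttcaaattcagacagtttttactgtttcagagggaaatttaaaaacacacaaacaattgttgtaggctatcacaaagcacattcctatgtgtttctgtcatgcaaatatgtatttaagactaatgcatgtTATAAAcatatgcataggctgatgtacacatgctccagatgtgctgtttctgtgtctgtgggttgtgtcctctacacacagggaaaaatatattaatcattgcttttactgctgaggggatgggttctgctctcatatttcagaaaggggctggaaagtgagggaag
The windows of Col4a1, Col4a2 and Col1a2 held CCAAT and GGGCGG matches on 1 or the other strand and no TATAAA, while that of Col3a1 held a TATAAA and neither of the others. CCAAT was in 13 of the 38 member windows (34.2%) and in 37.4% of all 32851 windows of this length. GGGCGG was in 23 member windows (60.5%) against 35.7% of all, and TATAAA in 5 (13.2%) against 13.6%. A match is only a run of letters and was not tied to any measured value.

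LPS against Vehicle asked what LPS did to these transcripts in the lung. Of the 35 tested members, 13 fell, 1 rose and 21 did not pass the test (edgeR quasi-likelihood, Benjamini-Hochberg adjusted p under 0.05 over all 17139 genes tested). Over all genes 10.7% fell and 14.2% rose by the same rule. The members' median log2 fold change was −1.05, against 0.01 over all tested genes, and 30 of the 35 lay below 0, against 49.6% of all. In 20 members all LPS libraries lay below all Vehicle libraries and in 3 all lay above, where the same held for 25.1% and 24.7% of all genes. The 13 that fell were 4 fibrillar, 2 basement membrane, 3 FACIT, 3 type VI and 1 transmembrane. In whole tissue, fewer cells of a type and less RNA per cell cannot be told apart. Without Vehicle replicate 1 the count of members that fell was 7, while that of all genes went from 1836 to 640. After removal of each library's trend with GC content the members numbered 8 and all genes 1272. The members' median was then −0.66, against 0.05 over all genes, and 26 members lay below 0. With each library left out, that median ranged from −1.20 (without LPS replicate 2) to −0.81 (without LPS replicate 1).

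**Figure D1:**
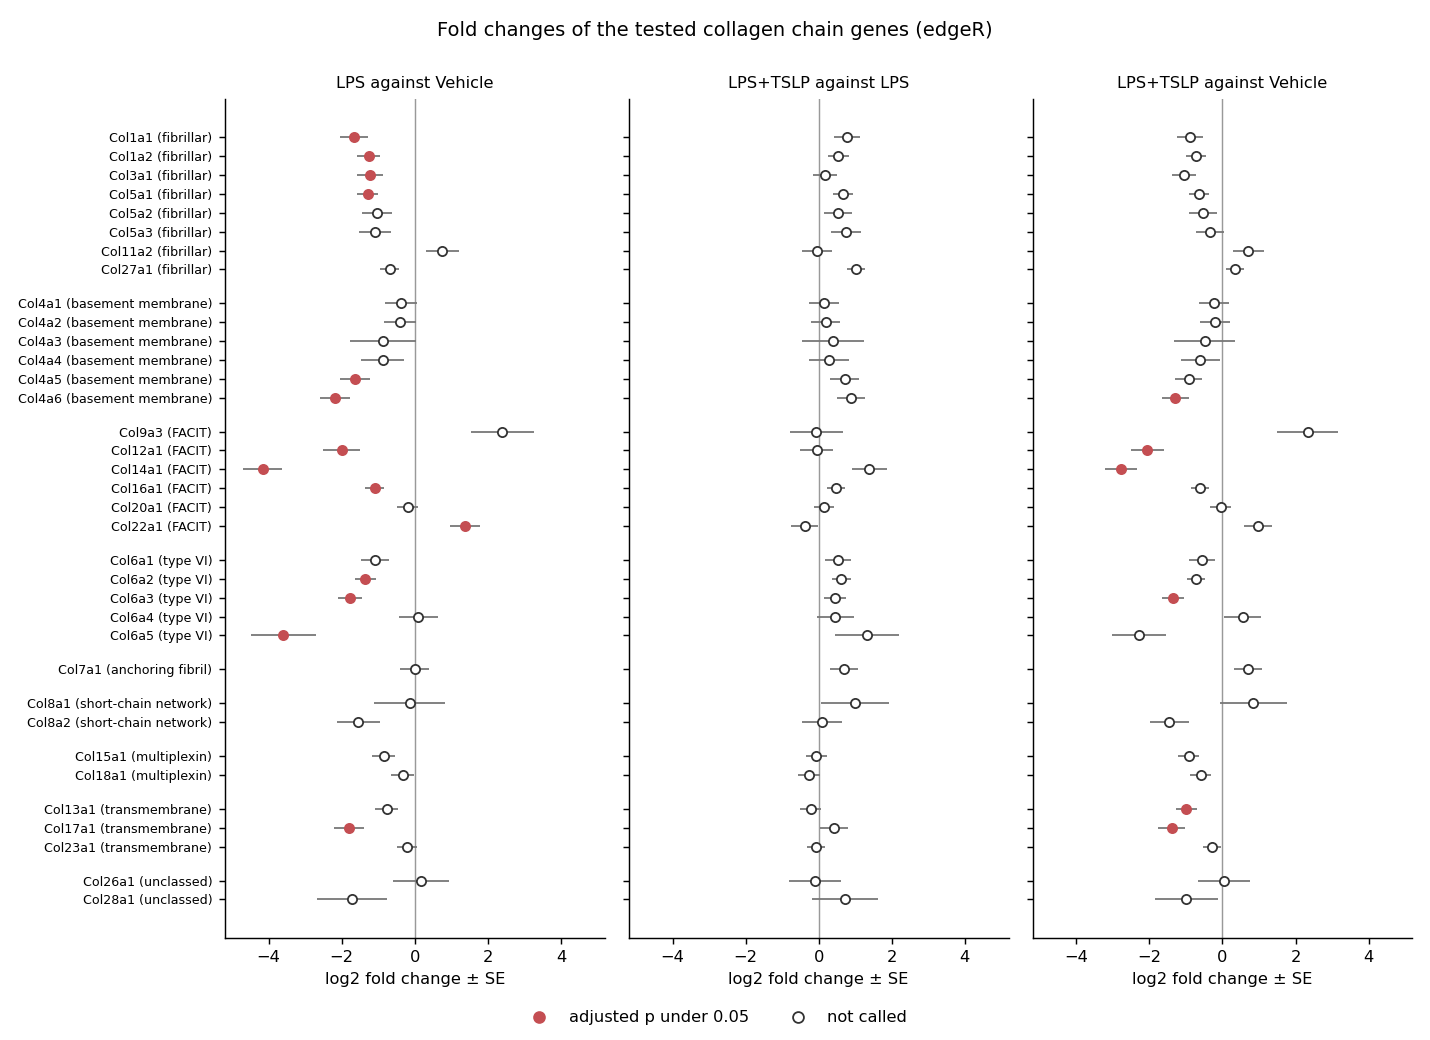
Log2 fold changes (x axis) with their standard errors for the 35 tested collagen chain genes, one row per gene ordered by class, in the 3 comparisons. Filled red points passed an adjusted p under 0.05 and open points did not: 14 passed in LPS against Vehicle, 0 in LPS+TSLP against LPS and 6 in LPS+TSLP against Vehicle.

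Fibrillar chains: Col1a1, Col1a2, Col3a1 and Col5a1 fell after LPS, and none of the 8 tested fibrillar genes rose. Col1a1, the major chain of type I collagen (ENSMUSG00000001506, chromosome 11, 94936224 to 94953042), was at 1024, 1078 and 1534 CPM in Vehicle, at 170, 467 and 513 CPM in LPS and at 513, 659, 562 and 892 CPM in LPS+TSLP. All LPS libraries lay below all Vehicle libraries, with LPS replicate 1 lowest. Its log2 fold change was −1.66 (SE 0.39, adjusted p = 0.0129). Col1a2 was at 1080, 970 and 1435 CPM in Vehicle, 293, 632 and 528 CPM in LPS and 623, 666, 594 and 921 CPM in LPS+TSLP. The order of groups was that of Col1a1, and Col1a2 fell by 1.26 on the log2 scale (SE 0.31, adjusted p = 0.0151). Col3a1, whose type III fibrils run with type I in distensible tissue, was at 1544, 1635 and 2455 CPM in Vehicle, 458, 1075 and 876 CPM in LPS and 731, 818, 759 and 1299 CPM in LPS+TSLP. It fell by 1.23 on the log2 scale (SE 0.36, adjusted p = 0.029).

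Col5a1, a chain of the type V collagen that nucleates type I fibrils, was at 131, 135 and 188 CPM in Vehicle, 37.7, 74.6 and 72.7 CPM in LPS and 112, 88.4, 71.9 and 116 CPM in LPS+TSLP. Its groups Vehicle and LPS did not overlap, and its log2 fold change was −1.29 (SE 0.29, adjusted p = 0.0111). Its partner chain Col5a2 had a log2 fold change of −1.05 that did not pass (adjusted p = 0.0831), nor did Col27a1, a fibrillar chain of cartilage and developing tissue, at −0.69 (adjusted p = 0.0761). Col5a3 (−1.09) and Col11a2 (0.75) did not pass either. In some alternatives Col5a2, Col5a3 and Col27a1 passed, such as Col5a2 by the DESeq2 Wald test (adjusted p = 0.038) and Col27a1 without LPS replicate 2 (0.0445). After removal of the GC trend none of the 4 called fibrillar genes passed: Col1a1 was at −1.30 (adjusted p = 0.0506), Col1a2 at −0.98 (0.0606), Col3a1 at −0.93 (0.0942) and Col5a1 at −0.97 (0.0534). Col3a1 also did not pass without any 1 of Vehicle replicates 1, 2 and 3 or LPS replicate 1 (adjusted p = 0.051, 0.0539, 0.0767 and 0.071). The 35 tested members had a median GC content of 56.1%, against 49.7% over the tested genes with a value. The 3 untested fibrillar genes were near 0: Col2a1, the cartilage chain, had 6, 2 and 6 counts over the Vehicle, LPS and LPS+TSLP groups, Col11a1 had 3, 1 and 8, and Col24a1 had 12, 3 and 10.

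**Figure D2:**
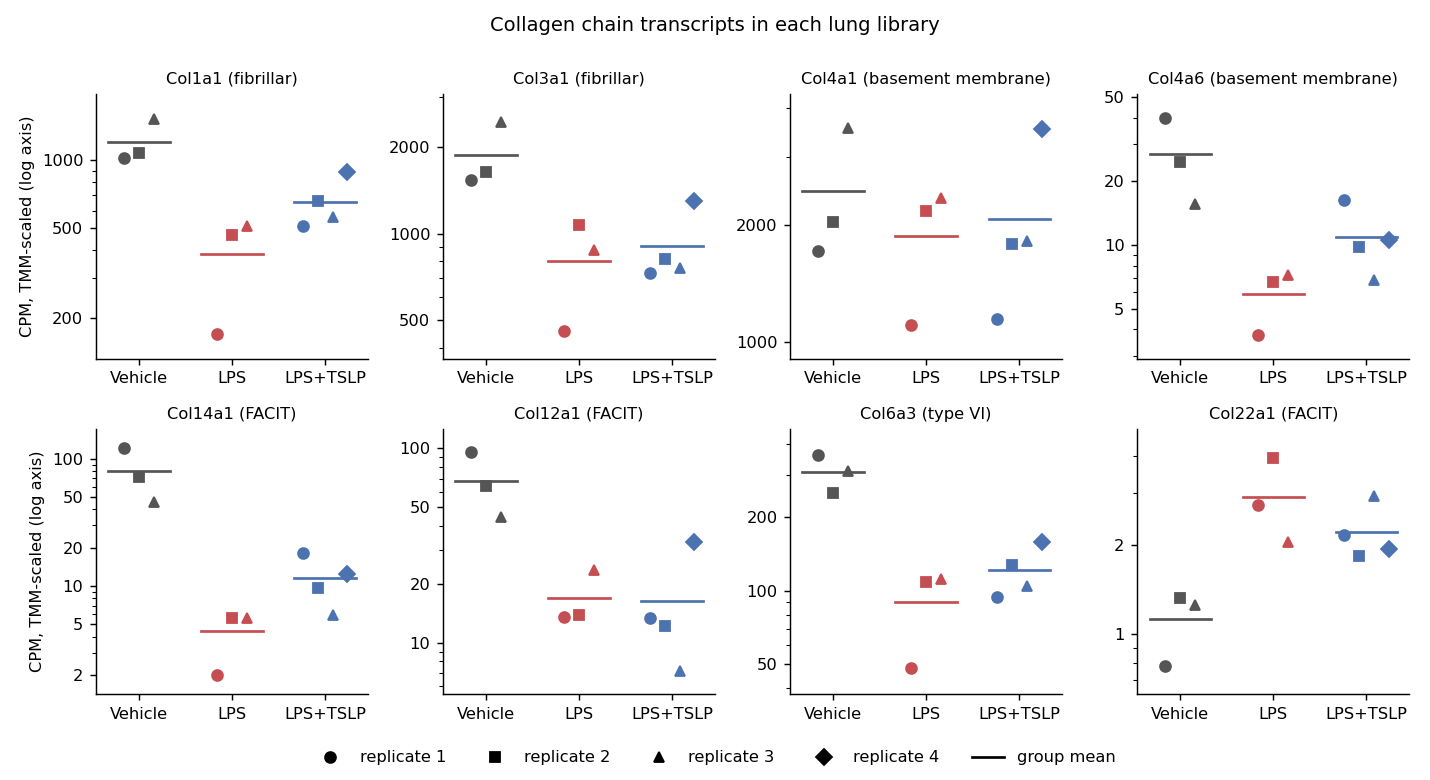
CPM (log axis, scaled by TMM) of 8 collagen chain genes in each library, with 1 point per library and a line at the group mean. In Col1a1, Col3a1, Col14a1, Col12a1, Col6a3 and Col4a6 all LPS points lie below all Vehicle points, in Col22a1 all lie above, and in Col4a1 the groups overlap.

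Basement membrane chains: Col4a5 and Col4a6 fell after LPS, and the 4 others did not pass. Col4a6 (ENSMUSG00000031273, chromosome X, 141165403 to 141474076), a chain of the smooth muscle and bronchial basement membrane, was at 40.0, 24.8 and 15.7 CPM in Vehicle, 3.77, 6.71 and 7.21 CPM in LPS and 16.4, 9.77, 6.86 and 10.6 CPM in LPS+TSLP. The highest LPS library was at 7.21 CPM and the lowest Vehicle library at 15.7 CPM. Its log2 fold change was −2.18 (SE 0.42, adjusted p = 0.00605). Col4a5, which starts 1343 bases away on the other strand, was at 174, 114 and 122 CPM in Vehicle, 30.6, 64.7 and 36.0 CPM in LPS and 30.0, 103, 64.2 and 89.7 CPM in LPS+TSLP. It fell by 1.64 on the log2 scale (SE 0.42, adjusted p = 0.0179). The call of Col4a5 was lost without Vehicle replicate 1, LPS replicate 1 or LPS replicate 3 (adjusted p = 0.0642, 0.065 and 0.0502).

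Col4a1 (ENSMUSG00000031502), a ubiquitous chain and one of the markers given for collagen-producing stroma, was at 1720, 2042 and 3564 CPM in Vehicle, 1107, 2177 and 2342 CPM in LPS and 1145, 1789, 1824 and 3542 CPM in LPS+TSLP. The groups overlapped, with Vehicle replicate 3 and LPS+TSLP replicate 4 highest, and the log2 fold change in LPS was −0.38 (SE 0.44, adjusted p = 0.553). Col4a2 had −0.40 (SE 0.43, adjusted p = 0.518). With errors of this size the values do not show that these chains kept their level. Col4a3 and Col4a4, the chains of the thick alveolar basement membrane, had −0.87 and −0.88 with adjusted p of 0.499 and 0.289, although all LPS libraries lay below all Vehicle libraries in both. Their LPS+TSLP values were widely spread, at 3.13, 154, 101 and 169 CPM for Col4a3 and 15.3, 167, 94.7 and 140 CPM for Col4a4, with replicate 1 lowest in both. In that library the alveolar type 1 marker Ager was at 315 CPM, against 1647 to 2485 CPM in the other LPS+TSLP libraries, and its part in these values was not tested. In LPS against Vehicle, Col4a4 passed when LPS+TSLP replicate 1 was left out (−0.87, adjusted p = 0.0234). It also passed when only the 2 groups were fitted (−0.86, adjusted p = 0.0255).

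FACIT chains: Col14a1, Col12a1 and Col16a1 fell and Col22a1 rose. Col14a1 (ENSMUSG00000022371, chromosome 15, 55307750 to 55520803), a fibril-surface collagen of adventitial fibroblasts, was at 120, 72.2 and 45.7 CPM in Vehicle, 2.01, 5.58 and 5.60 CPM in LPS and 18.3, 9.66, 5.88 and 12.5 CPM in LPS+TSLP. The 3 groups did not overlap, and its log2 fold change in LPS, −4.17 (SE 0.54, adjusted p = 0.00196, 18.0-fold lower), was the largest fall among the tested members. Col12a1, a fibril-surface collagen of tissues under load, was at 95.7, 64.0 and 44.6 CPM in Vehicle, 13.5, 13.9 and 23.6 CPM in LPS and 13.4, 12.1, 7.13 and 32.9 CPM in LPS+TSLP. It fell by 1.999 on the log2 scale (SE 0.50, adjusted p = 0.0165), and did not pass without Vehicle replicate 1, LPS replicate 1 or LPS replicate 2 (adjusted p = 0.0632, 0.0595 and 0.0556). Within Vehicle, both genes were highest in replicate 1 and lowest in replicate 3, while Col1a1, Col3a1 and Col4a1 were highest in replicate 3.

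Col16a1 was at 64.3, 53.5 and 49.5 CPM in Vehicle, 25.8, 36.6 and 15.5 CPM in LPS and 36.5, 37.8, 35.6 and 35.2 CPM in LPS+TSLP. Its groups Vehicle and LPS did not overlap, and it fell by 1.10 on the log2 scale (SE 0.26, adjusted p = 0.0139). Removing the GC trend gave −0.71 (adjusted p = 0.0516), and leaving out Vehicle replicate 1 gave −0.98 (adjusted p = 0.0621). Col22a1, known from tissue junctions such as that of muscle and tendon, was the 1 member that rose, from 0.786, 1.33 and 1.25 CPM to 2.74, 3.95 and 2.05 CPM in LPS, with 2.17, 1.84, 2.94 and 1.95 CPM in LPS+TSLP. It stood on 62, 152 and 152 counts over the Vehicle, LPS and LPS+TSLP groups. Its log2 fold change was 1.37 (SE 0.41, adjusted p = 0.0321), and it did not pass without Vehicle replicates 1, 2 or 3 or LPS replicates 1 or 2 (adjusted p from 0.0592 to 0.127) or with no filter (0.0776). Col9a3 had 17, 87 and 110 counts over the groups and a log2 fold change of 2.40 that did not pass (SE 0.86, adjusted p = 0.0628). It passed without Vehicle replicate 3, its highest Vehicle library (4.22, adjusted p = 0.0117), without LPS+TSLP replicate 1 (0.0403), with no filter (0.0474), by limma-voom (0.0465) and by the DESeq2 Wald test (0.02). Its type IX partner chains Col9a1 and Col9a2 had 0 counts in Vehicle and LPS and 3 and 1 in LPS+TSLP. A count of 0 over a group allows up to 3 counts. The 8 airway cartilage markers summed to at most 2.07 CPM in any library, and Acan, the main cartilage proteoglycan, was at 0 CPM in all 10. Col20a1 (−0.20) did not pass, and Col19a1 had 0, 0 and 3 counts.

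Other types: Col6a2, Col6a3 and Col6a5 of type VI and the transmembrane Col17a1 fell after LPS. Col6a3 (chromosome 1, 90765923 to 90843971), the longest main chain of the type VI filament, was at 361, 253 and 312 CPM in Vehicle, 48.1, 109 and 112 CPM in LPS and 94.2, 128, 105 and 158 CPM in LPS+TSLP. Every LPS and every LPS+TSLP library lay below every Vehicle library, and the log2 fold change in LPS was −1.78 (SE 0.33, adjusted p = 0.00523). Col6a2 was at 466, 345 and 413 CPM in Vehicle, 126, 206 and 148 CPM in LPS and 162, 284, 235 and 302 CPM in LPS+TSLP. It fell by 1.35 on the log2 scale (SE 0.28, adjusted p = 0.00774), and its groups Vehicle and LPS did not overlap. Col6a1, its partner chain, had −1.09 and missed the threshold (adjusted p = 0.0551). It passed when LPS+TSLP replicate 1 was left out (0.00722), when only the 2 groups were fitted (0.0174) and by the DESeq2 Wald test (0.0164). Col6a5, a minor chain, had 36, 54 and 16 counts in Vehicle, 1, 5 and 2 in LPS and 13, 8, 4 and 1 in LPS+TSLP. It fell by 3.60 on the log2 scale (SE 0.88, adjusted p = 0.0152), on few counts, and did not pass without Vehicle replicate 1, Vehicle replicate 2 or LPS replicate 1 (adjusted p = 0.0515, 0.0626 and 0.064).

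Col17a1, the hemidesmosome collagen of basal epithelial cells, was at 10.4, 7.25 and 5.18 CPM in Vehicle, 1.95, 3.05 and 1.498 CPM in LPS and 1.72, 3.51, 2.83 and 3.47 CPM in LPS+TSLP. It fell by 1.81 on the log2 scale (SE 0.41, adjusted p = 0.0115), and did not pass without Vehicle replicate 1 (adjusted p = 0.0539). Col13a1, a transmembrane collagen of cell junctions, was at 86.3, 62.2 and 47.8 CPM in Vehicle, 35.9, 51.7 and 27.7 CPM in LPS and 20.96, 33.4, 32.9 and 44.9 CPM in LPS+TSLP. The Vehicle and LPS ranges overlapped, and its log2 fold change of −0.77 did not pass (adjusted p = 0.0969). The basement membrane multiplexin Col15a1 (−0.85, adjusted p = 0.0649) and the network-forming Col8a2 (−1.55, adjusted p = 0.0736) did not pass either. Both passed in some alternatives, such as the DESeq2 Wald test (adjusted p = 0.0418 for Col15a1 and 0.0278 for Col8a2). Without LPS+TSLP replicate 1 they passed too (0.0447 and 0.0400). The Col8a2 partner Col8a1 ranged from 6.12 to 65.3 CPM within Vehicle and from 15.2 to 140 CPM within LPS+TSLP. The 6 other tested members of these types (Col6a4, Col7a1, Col18a1, Col23a1, Col26a1 and Col28a1) did not pass. The untested Col6a6 had 41, 6 and 18 counts over the groups, Col10a1 had 0, 6 and 3 and Col25a1 had 14, 19 and 13.

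In LPS against Vehicle the calls on 4 members, Col14a1, Col4a6, Col6a2 and Col6a3, held in every alternative tried: other scalings, filters and tests, a replicate block, removal of GC or length trends, and each library left out. Levels per kilobase of exon allowed an order among genes. In Vehicle, Col4a1 was highest at 327 ± 132 CPM per kb (SD, n = 3), then Col4a2 at 298 ± 106, Col3a1 at 191 ± 51.1, Col1a1 at 185 ± 42.7, Col6a1 at 119 ± 19.0 and Col1a2 at 93.5 ± 19.6 CPM per kb. The ranges of mean ± SD of neighbours in this order overlapped, except for Col1a1 and Col6a1. The length of Col1a2, 12426 bases, is that of all its annotated exons together. In LPS, Col4a1 (251 ± 89.8) and Col4a2 (226 ± 79.9 CPM per kb) again came first, and Col3a1 was at 81.8 ± 32.1 and Col1a1 at 58.5 ± 28.4 CPM per kb.

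Summed over the 44 members, collagen transcripts were at 9829, 9766 and 14590 CPM in Vehicle, 3819, 7718 and 7360 CPM in LPS and 4853, 7539, 6823 and 11640 CPM in LPS+TSLP. The Vehicle and LPS libraries did not overlap, and the mean log2 sum was 0.90 lower in LPS, a 1.86-fold lower level (exact permutation test, two-sided p = 0.1, the smallest that 3 against 3 can give). Between LPS+TSLP and LPS the difference was 0.29 (exact permutation p = 0.571) and between LPS+TSLP and Vehicle −0.61 (exact permutation p = 0.171). Over the 3 comparisons the adjusted values were 0.257, 0.571 and 0.257. The make-up of this sum differed by group. Fibrillar chains were 40.5%, 41.0% and 40.6% of collagen CPM in Vehicle and 26.7%, 30.9% and 29.2% in LPS, and basement membrane chains 38.1%, 42.6% and 46.3% in Vehicle and 55.7%, 55.8% and 58.7% in LPS. In LPS+TSLP fibrillar chains were 43.6%, 32.3%, 31.3% and 29.7% and basement membrane chains 42.1%, 52.2%, 53.5% and 57.3%, so that replicate 1 had a make-up within or near the Vehicle range and the other 3 lay outside it. These shares were looked at after the values were seen and carry no test. In CPM, basement membrane chains summed to 3746, 4158 and 6757 in Vehicle and 2129, 4309 and 4322 in LPS, and these ranges overlapped. Fibrillar chains summed to 3983, 4005 and 5929 CPM in Vehicle and 1020, 2385 and 2152 CPM in LPS. The larger basement membrane share in LPS was therefore not a higher level, and these sums carry no test either.

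**Figure D3:**
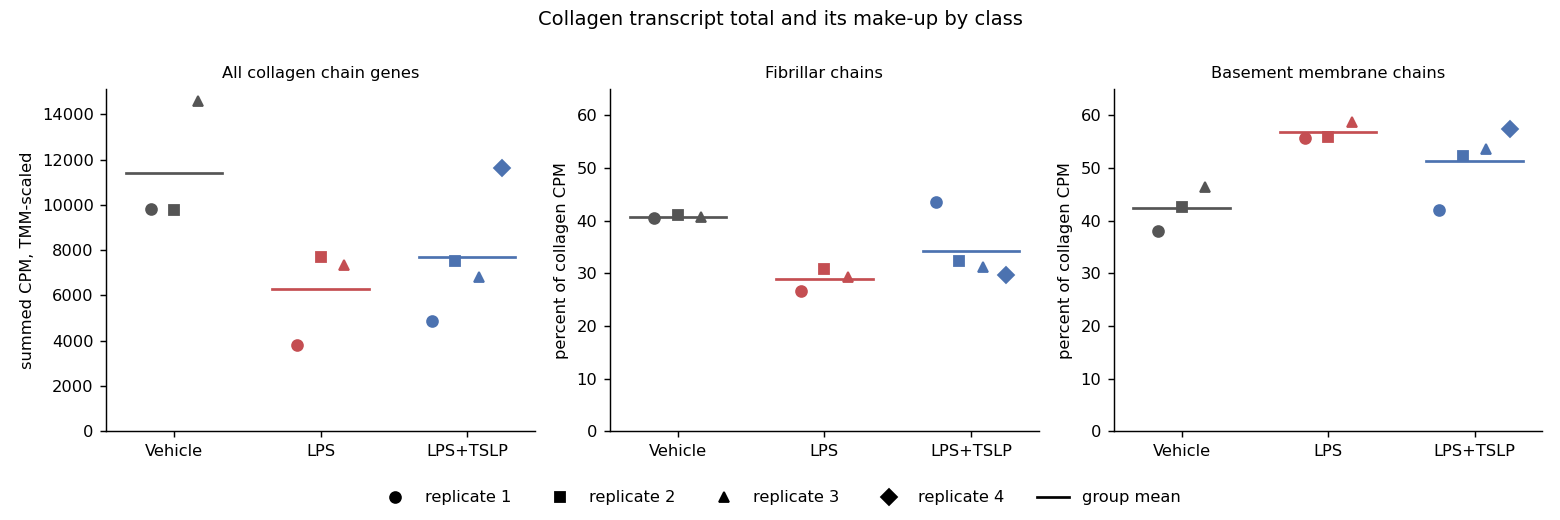
Left, summed CPM of the 44 collagen chain genes per library; middle and right, fibrillar and basement membrane chains as a percent of that sum. Points are libraries and lines group means; fibrillar chains were 40.5% to 41.0% of the sum in Vehicle and 26.7% to 30.9% in LPS.

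Ratios of chain counts within a library do not depend on scaling between libraries. Col3a1/Col1a1, type III against type I, had log2 values of 0.59, 0.60 and 0.68 in Vehicle, 1.43, 1.20 and 0.77 in LPS and 0.51, 0.31, 0.43 and 0.54 in LPS+TSLP. No 2 groups overlapped: LPS lay highest and LPS+TSLP lowest. The difference was 0.51 for LPS against Vehicle (exact permutation p = 0.1), −0.68 for LPS+TSLP against LPS (exact permutation p = 0.0571) and −0.17 for LPS+TSLP against Vehicle (exact permutation p = 0.0571). These are the smallest p that 3 against 3 and 4 against 3 can give, and none passed over the 21 ratio comparisons (adjusted p = 0.42 for each). Col4a1/Col4a2, the back-to-back pair shown above, had log2 values from 0.24 to 0.36 in Vehicle, from 0.27 to 0.39 in LPS and from 0.06 to 0.46 in LPS+TSLP, with differences between groups of 0.04, −0.05 and −0.01 (exact permutation p = 0.6, 0.743 and 1).

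Col1a1/Col1a2, the chains that pair in the type I helix, had −0.08, 0.15 and 0.10 in Vehicle, −0.78, −0.43 and −0.04 in LPS and −0.28, −0.02, −0.08 and −0.05 in LPS+TSLP, and the groups overlapped (LPS against Vehicle −0.48, exact permutation p = 0.2). Col6a1/Col6a2 was 0.26 higher in LPS than in Vehicle and Col15a1/Col18a1 0.57 lower, without overlap in either (exact permutation p = 0.1 for each, adjusted p = 0.42). Col5a1/Col5a2 and Col4a3/Col4a1 overlapped between all groups, with differences from −1.19 to 0.08. The −1.19 is Col4a3/Col4a1 in LPS+TSLP against Vehicle, and without LPS+TSLP replicate 1 it was −0.07.

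**Figure D4:**
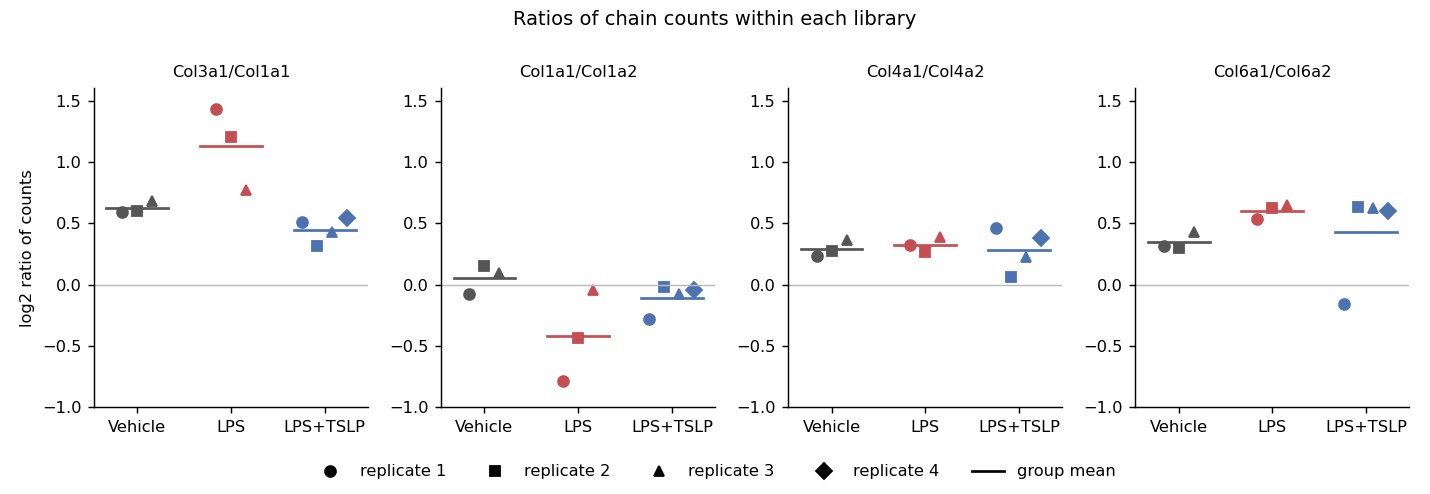
Log2 ratios of counts of 2 collagen chains within each library (y axis), with 1 point per library and a line at the group mean. Col3a1/Col1a1 separates all 3 groups, with LPS at 0.77 to 1.43, while Col4a1/Col4a2 stays between 0.06 and 0.46 in all 10 libraries.

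The next comparison, LPS+TSLP with LPS, asked what was added by TSLP pretreatment. It shares its LPS libraries with the first comparison. No member was called, and neither was any of the 17139 genes (0% higher, 0% lower by edgeR, with 1388 genes at an unadjusted p under 0.05, 5 of them members). The DESeq2 Wald test called 22 genes higher and 13 lower, none a member. The members' median log2 fold change was 0.44, against 0.02 over all genes, and 9 of 35 lay below 0, against 47.8% of all. In 2 members, Col27a1 and Col14a1, all LPS+TSLP libraries lay above all LPS libraries, as in 3.88% of all genes, and in 0 members all lay below, as in 3.54% of all genes. Col27a1 was at 29.8, 28.9, 22.4 and 17.2 CPM in LPS+TSLP, against 10.04, 15.9 and 10.4 CPM in LPS and 22.1, 17.6 and 18.9 CPM in Vehicle. Its log2 fold change was 1.02 (SE 0.25, adjusted p = 0.589). Col14a1 had 1.39 (SE 0.47, adjusted p = 0.589), with its lowest LPS+TSLP library at 5.88 CPM and its highest LPS library at 5.60 CPM. Col1a1 had 0.77 (SE 0.36, adjusted p = 0.62), Col3a1 0.17 (SE 0.33, adjusted p = 0.925), Col4a1 0.15 (SE 0.41, adjusted p = 0.951), Col4a6 0.88 (SE 0.39, adjusted p = 0.606) and Col6a3 0.44 (SE 0.30, adjusted p = 0.75). Without LPS replicate 1 the difference in the summed collagen level went from 0.29 to −0.04, and Col3a1 and Col4a1 to −0.11 and −0.13. The members' median was then 0.28, with 12 of 36 tested members below 0. It was the lowest with any 1 library left out, and the highest was 0.61 without LPS replicate 2, with 7 of 36 below 0.

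LPS+TSLP against Vehicle shares its Vehicle libraries with the first comparison. Of the 35 tested members, 6 fell and 0 rose, where 5.35% of all genes fell and 8.82% rose. The median was −0.60 (0.03 over all genes), 27 of 35 lay below 0 (48.4% of all), and in 15 members all LPS+TSLP libraries lay below all Vehicle libraries and in 1 (Col22a1) above, against 15.9% and 15.7% of all genes. Those that fell were Col14a1 (−2.78, SE 0.45, adjusted p = 0.00446), Col6a3 (−1.35, SE 0.29, adjusted p = 0.0155), Col12a1 (−2.06, SE 0.46, adjusted p = 0.0164), Col17a1 (−1.40, SE 0.37, adjusted p = 0.0316), Col4a6 (−1.30, SE 0.37, adjusted p = 0.0392) and Col13a1 (−0.99, SE 0.29, adjusted p = 0.0461). By class these were 2 FACIT, 1 basement membrane and 3 of other types, and none fibrillar. Col4a6 passed although LPS+TSLP replicate 1 (16.4 CPM) lay above the lowest Vehicle library (15.7 CPM). Only the call on Col14a1 held in every alternative, and it was the 1 call left without Vehicle replicate 1. Col4a6 also did not pass without LPS+TSLP replicate 4 or LPS replicate 2 (adjusted p = 0.0625 and 0.0551), and Col13a1 not without LPS+TSLP replicate 1 (0.0534). Without Vehicle replicate 2, LPS+TSLP replicate 2 or LPS+TSLP replicate 3 the count was 3, 2 and 2, and with the GC trend removed it was 2. Over all genes the calls lower went from 917 to 81 without Vehicle replicate 1, to 117, 205 and 181 without those 3 libraries, and to 481 with the GC trend removed. In that last setting the members' median was −0.36, against 0.09 over all genes, and 24 members lay below 0. Without LPS replicate 1, which is in neither group but in the filter and the shared estimate of spread, the members numbered 10 and all genes 1329. Col3a1 (−1.06, adjusted p = 0.0513), Col15a1 (−0.92, adjusted p = 0.0536), Col1a1 (−0.88, adjusted p = 0.109), Col22a1 (0.98, adjusted p = 0.105) and Col4a1 (−0.23, adjusted p = 0.725) did not pass. In Col3a1, Col15a1 and Col1a1 all LPS+TSLP libraries lay below all Vehicle libraries. Among other settings, Col3a1 passed by the DESeq2 Wald test (adjusted p = 0.0085) and with a replicate block (0.0223). Col15a1 passed by the DESeq2 Wald test (0.0257) and limma-voom (0.0477), among others. Col1a1 passed with a replicate block (0.0487) and without LPS replicate 1 (0.0274).

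The genes whose log2 CPM over the 10 libraries was most like that of a marker are given as a description, since genes that differ between groups share that difference. For Col14a1 they were Sipa1l2 (Pearson r = 0.982), D430042O09Rik (0.981), Sh3pxd2a (0.980), Col4a6 (0.979) and Wscd2 (0.979). For Col1a1 they were Mest (0.985), Col1a2 (0.981), Dnmt3a (0.971), Sipa1l1 (0.969) and Artn (0.968). Other chains followed Col1a1 to different degrees, from Col5a2 (0.956), Col5a1 (0.953) and Col6a3 (0.937) to Col22a1 (−0.69). For Col4a1 the first was Col4a2 (0.981).

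Genes that make, process, crosslink or bind collagen were taken from 6 lists. Their counts in LPS against Vehicle stand beside 10.7% lower and 14.2% higher over all genes tested. Of 15 tested basement membrane partners, 9 fell and 0 rose after LPS, with a median of −1.16. They included Hspg2 (perlecan), at 573, 597 and 533 CPM in Vehicle and 107, 163 and 165 CPM in LPS. Hspg2 fell by 1.97 on the log2 scale (SE 0.28, adjusted p = 0.00219). The laminin chains Lamc3 (−1.67, adjusted p = 0.00345), Lama2 (−2.21, adjusted p = 0.00548) and Lama4 (−1.33, adjusted p = 0.00562) and Nid2, which links laminin to type IV collagen (−1.72, adjusted p = 0.0107), fell too. Of 12 fibril-binding proteins 4 fell and 1 rose (median −0.90). Tnxb, which bridges fibrils, fell by 2.89 (adjusted p = 0.00303), and the leucine-rich proteoglycans Prelp by 1.58 (0.00696), Fmod by 2.72 (0.0101) and Bgn by 0.94 (0.0245). Ogn, of the same proteoglycan family, rose by 2.13 (adjusted p = 0.0378). The calls on Ogn and Bgn were each lost with the GC trend removed (adjusted p = 0.464 and 0.111). Ogn also did not pass without any 1 of the 3 Vehicle libraries, LPS replicates 1 or 2 or LPS+TSLP replicate 3 (0.051 to 0.139), nor Bgn without Vehicle replicates 1 or 2 or LPS replicates 1 or 3 (0.0501 to 0.087). The call on Ogn was lost too with no filter (adjusted p = 0.159), by limma-voom (0.0688) and with a replicate block (0.107).

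Of 8 tested propeptide processing genes 3 fell and 0 rose (median −0.81): Pcolce2, an enhancer of C-propeptide cleavage (−2.63, adjusted p = 0.00305), Adamts2, the N-propeptidase (−1.35, adjusted p = 0.0252), and Tll1, a C-propeptidase (−2.26, adjusted p = 0.0295). Of 7 crosslinking genes 1 fell, Pxdn, which makes the sulfilimine bonds of type IV collagen (−1.70, adjusted p = 0.009), with a list median of −0.49. Among 20 genes of chain modification in the endoplasmic reticulum 3 fell and 2 rose, with a median of −0.17. Those that fell were Colgalt2, a collagen galactosyltransferase (−2.04, adjusted p = 0.00737), and P3h3 and Crtap of the prolyl 3-hydroxylase family and complex (−1.21 and −0.61, adjusted p = 0.0118 and 0.0298). Mia3, which loads procollagen into transport carriers (0.96, adjusted p = 0.00736), and Tmem38b, an endoplasmic reticulum potassium channel (0.88, adjusted p = 0.0428), rose. Of 11 receptors and uptake genes 3 fell and 1 rose (median −0.07): the uptake receptor Mrc2 (−1.83, adjusted p = 0.00383), the receptor kinases Ddr1 (−0.85, adjusted p = 0.0161) and Ddr2 (−0.79, adjusted p = 0.0421), and Lair1, an inhibitory leukocyte receptor (1.42, adjusted p = 0.0321). Of these genes, Adamts2, Tll1, P3h3, Crtap, Tmem38b, Ddr1, Ddr2 and Lair1 each did not pass without Vehicle replicate 1 (adjusted p from 0.0503 to 0.151), and all but P3h3 and Ddr1 did not pass without LPS replicate 1 (0.0542 to 0.135). Crtap, Tll1, Tmem38b, Ddr1, Ddr2 and Lair1 did not pass without Vehicle replicate 2 (0.0652 to 0.125), and Adamts2, Tll1, Crtap, Ddr2 and Lair1 not without LPS replicate 2 (0.0508 to 0.0905). Crtap and Ddr2 also did not pass without Vehicle replicate 3 (0.0637 and 0.0613), nor Crtap, Lair1 and Tmem38b without LPS replicate 3 (0.0664 to 0.0876), nor Tmem38b without LPS+TSLP replicates 2 or 3 (0.0556 and 0.0526). With the GC trend removed Adamts2 (adjusted p = 0.0806), P3h3 (0.0558), Lair1 (0.085), Ddr1 (0.155), Crtap (−0.30, adjusted p = 0.265) and Tmem38b (0.23, adjusted p = 0.529) did not pass. Ddr2 did not pass with a replicate block (0.0591) or the length trend removed (0.0811). Crtap did not with no filter (0.0817), nor Tmem38b with library size alone (0.0587). Without both replicates 1 that stood apart, Tll1, Ddr2 and Tmem38b did not pass (0.0806, 0.096 and 0.106). In LPS+TSLP against LPS no gene of these lists passed by edgeR. In LPS+TSLP against Vehicle, where 5.35% of all genes fell and 8.82% rose, 5 basement membrane partners fell and 0 rose, and 4 fibril-binding proteins fell and 1, Ogn, rose (3.04, adjusted p = 0.0155). Of the chain modification genes 2 fell and 1 rose, and 1 gene each fell of the propeptide, crosslinking and receptor lists, with 0 higher.

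Some markers of cells that carry collagen transcripts were lower after LPS too, where 10.7% of all genes fell. Of 8 fibroblast markers 3 fell after LPS (summed level 2198 to 4233 CPM in Vehicle, 1017 to 1506 in LPS, 1638 to 2280 in LPS+TSLP), of 6 mural markers 4 fell (1098 to 1726, 547 to 717 and 700 to 1235 CPM), and of 5 endothelial markers 3 fell (3888 to 5198, 2803 to 2982 and 1937 to 3303 CPM). Those that fell were the fibroblast markers Pi16 (adjusted p = 0.00402), Npnt (0.0069) and Inmt (0.0403). The mural markers were Pdgfrb (0.019), Cspg4 (0.0144), Notch3 (0.00451) and Myh11 (0.0055), and the endothelial Cdh5 (0.0428), Vwf (0.0262) and Kdr (0.0124). The lowest Vehicle library of Inmt was at 650 CPM and its highest LPS library at 625 CPM. These calls are from the main fit, and their values in the alternatives are not given here. The fibroblast markers Pdgfra (−0.30), Tcf21 (−0.78), Dpt (−0.72), Lum (−0.85) and Dcn (−0.81) did not pass. Nor did the mural Acta2 (−0.91) and Cnn1 (−1.41) or the endothelial Pecam1 (−0.20) and Cldn5 (0.40). Inmt and Npnt were the highest fibroblast markers in Vehicle, with means of 1294 and 895 CPM. The 4 mesothelial markers, 3 alveolar type 1 and 5 neutrophil markers had none that passed, and 1 of 3 alveolar type 2 markers, Lamp3, rose (2.61, adjusted p = 0.0082). The other 2, Sftpc (−1.64, adjusted p = 0.0953) and Sftpb (−1.16, adjusted p = 0.106), had lower values that did not pass. Summed neutrophil markers were at 301 to 983 CPM in Vehicle, 1462 to 1875 in LPS and 114 to 1003 in LPS+TSLP. No fibroblast, mural or endothelial marker was at 0 in any library. Their part in the collagen values was not tested.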

How the data were processed

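Mouse lung RNA was sequenced in 10 libraries. The authors deposited raw read counts per gene, unnormalised. Per the submitters' processing notes, the tools were CASAVA, HISAT2 and HTSeq 0.6.0 and the build GRCm38/mm10; the strand setting and annotation release are not given in the sources used here. Without strand, reads of overlapping antisense genes cannot be told apart, which touches 0.174% to 6.073% of the exon bases of 10 members, most in Col9a3 (6.073%), Col4a3 (5.649%), Col6a4 (3.39%) and Col5a1 (2.497%), and at most 4.25% of 50-base stretches of any member occur in another gene.

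From these counts, filterByExpr kept 17139 genes, which were scaled by TMM and tested with edgeR 4.0.16 quasi-likelihood (robust, R 4.3.3) in 1 fit of 3 groups, two-sided, with a call at an adjusted p under 0.05 (Benjamini-Hochberg over all tested genes). CPM and fold changes are from that fit. Summed levels and log2 ratios (0.5 added to each count) were compared by exact permutation tests. The members, classes and lists were chosen with earlier results of these data known. Members called in any comparison and the 3 markers are given in every library, and up to 5 genes of each list with the smallest p in LPS against Vehicle. Alternatives were DESeq2 1.42.0 size factors and Wald test, limma-voom (limma 3.58.1), library size alone, 2 other filters, fits of 2 groups, a replicate block, GC and length trends removed, haemoglobin, mitochondrial and immunoglobulin genes removed, both libraries that stood apart left out together, a pseudocount of 2 in the ratios, and each library left out. No pairing was used, since no label says that equal replicate numbers mark a shared litter, batch or day. Equal replicate numbers had correlations of −0.344 to 0.405 after group means were removed. Unequal numbers were not compared, so these values cannot decide whether libraries were paired. Libraries of 1 group all differed by more than sampling noise (chi-square comparison of counts). The tests were run on simulated counts with the same dispersion for every gene and no outlying library. That run does not show how the tests behave at the spread of these data.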

Additional observations from a re-analysis of the deposited data

Results flagged for a closer look

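Among the 35 tested members and 8 summed levels and ratios, 2 values in the LPS+TSLP group had 1 library far from the other 3 by Dixon's test. That test picks out about 1 group in 20 by chance. In all 43 values were looked at. Both were in LPS+TSLP replicate 1, the library with 13.1% mitochondrial counts. Col4a3 was at 3.13 CPM there, against 101 to 169 CPM in the other 3 libraries. The log2 Col6a1/Col6a2 ratio was −0.154 there, against 0.60 to 0.64 in the other 3.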

How the results depend on the processing

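Members called lower after LPS numbered 8 with the GC trend removed, and 7 to 18 with each library left out. Members called higher after LPS numbered 2 by the DESeq2 Wald test and by limma-voom, 0 with a replicate block, and 0 to 2 with each library left out. In LPS+TSLP against Vehicle the members called lower numbered 12 by the DESeq2 Wald test, 10 with a replicate block, 2 with the GC trend removed, 11 without both replicates 1 that stood apart (LPS and LPS+TSLP), and 1 to 10 with each library left out. Members called higher there numbered 1 by the DESeq2 Wald test and 0 to 1 with each library left out. In LPS+TSLP against LPS 0 members were called in each alternative. The cause of these shifts was not tested. The replicate numbers were not taken as a pairing.

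With each library left out, some differences that did not pass changed sign. The summed level in LPS+TSLP against LPS ranged from −0.0377 to 0.488. For the log2 ratios in LPS+TSLP against LPS the ranges were −0.0247 to 0.534 (Col15a1/Col18a1), −0.106 to 0.0274 (Col4a1/Col4a2), −0.997 to 0.657 (Col4a3/Col4a1), −0.158 to 0.252 (Col5a1/Col5a2) and −0.245 to 0.0191 (Col6a1/Col6a2). In LPS+TSLP against Vehicle they were −0.0689 to 0.0639 (Col4a1/Col4a2) and −0.338 to 0.0016 (Col5a1/Col5a2), and in LPS against Vehicle −0.353 to 0.002 (Col5a1/Col5a2). Col3a1 in LPS+TSLP against LPS was −0.0271 without both replicates 1. Col4a1 was −0.1996 there with the replicate block, and 0.0081 in LPS+TSLP against Vehicle with the GC trend removed. With each library left out, LPS+TSLP against LPS ranged from −0.1105 to 0.4342 for Col3a1 and from −0.2169 to 0.3196 for Col4a1, and LPS+TSLP against Vehicle from −0.5879 to 0.1255 for Col4a1. Depth limits Col6a5, Col9a3, Col22a1, Col26a1 and Col28a1, with at most 152 counts in a group, and the 9 untested members.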
